A study of Homo sapiens with 4 samples.

Results

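Expression of 40 listed genes of RNA polymerase I and of nucleolar pre-rRNA processing was examined in endometrial cancer cells in which Efp was silenced. They were chosen by their function and not by a cut on their values, but with earlier results of these data known. Of these genes, 37 had a probe set paired with 1 gene symbol, and these were measured among 18417 genes in all. DDX18 and GNL3 had no such probe set and NOP56 had one paired with several symbols, so these 3 genes were not analysed here.

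Ribosomes are built in the nucleolus. RNA polymerase I transcribes the ribosomal DNA repeats into a long precursor RNA with the help of UBTF, which binds the repeats, the promoter selectivity factor to which TAF1D belongs, and RRN3, which joins the polymerase to that factor. The precursor is then modified by small nucleolar ribonucleoproteins, unwound by helicases, and cut and folded in separate assembly lines for the small and the large ribosomal subunit. The pathway is among the largest consumers of energy in dividing cells, and many of its genes are known targets of the transcription factor MYC.

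The data came from 4 Affymetrix arrays of total RNA, with 1 siControl and 1 siEfp array for each of the lines Ishikawa and HEC-1A. Ishikawa cells express ERα and derive from a well-differentiated adenocarcinoma of the endometrium, HEC-1A cells lack ERα and derive from a moderately differentiated one, and both were grown in the same serum-supplemented medium. siEfp is a short interfering RNA against Efp, a RING finger ubiquitin ligase whose gene is TRIM25, and siControl is a negative control duplex. The Ishikawa cells received siEfp #A and were harvested after 48 h, whereas no source used here gives the duplex or the time for the HEC-1A arrays. Each condition is therefore a single culture of a single line, with no replicate. Values are log2 signals after RMA, a normalization that brings all arrays to one distribution, and a difference is siEfp minus siControl within a line, so that -1 is a halving. Genes were counted by direction at any size and at a difference of 1.5-fold, which is 0.58 on the log2 scale.

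TRIM25 had a signal of 9.42 in siControl- and 7.96 in siEfp-treated Ishikawa cells, and of 9.50 and 7.93 in HEC-1A cells, which is the direction of the labels. All 6 epithelial markers examined were lower with siEfp in both lines, compared with 47.6% of all genes in Ishikawa and 47.7% in HEC-1A. Their medians were -0.28 in Ishikawa and -0.27 in HEC-1A. EPCAM in Ishikawa (-0.003) and KRT18 in HEC-1A (-0.04) were nearly level. The sum of the log2 signals of the 6 markers went from 64.3 to 62.5 in Ishikawa and from 49.4 to 47.5 in HEC-1A. KRT8 and KRT18 were bright in both lines, with signals of 10.9 to 12.4 for KRT8 and 11.6 to 11.9 for KRT18. CDH1 was bright in Ishikawa (10.2 with siControl) and dim in HEC-1A (4.07). No endothelial or immune marker exceeded 5.21 on any array. ESR1, the gene of ERα, had signals of 6.91 and 6.65 in Ishikawa and of 4.45 and 4.77 in HEC-1A. Whether these differences of the epithelial markers have a part in the results below was not tested.

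The region just before the transcription start is shown for 5 of the genes, because DDX21 and POLR1B were the genes furthest down and because UTP20, UTP4 and NOP10 carry the same motif as DDX21 with other differences. The sequences are RefSeq's for GRCh38.p14, each ending at the base before an annotated start and written 5′ to 3′ on the strand of the gene. Capitals mark the E-box CACGTG, the site of MYC and related factors, or in POLR1B the ETS core, searched as CCGGAAG on both strands and printed here as its reverse complement.
DDX21, chr10:68956547-68956646, plus strand: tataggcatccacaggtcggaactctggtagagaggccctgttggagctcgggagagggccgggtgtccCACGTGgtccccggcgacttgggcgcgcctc
UTP20, chr12:101280005-101280104, plus strand: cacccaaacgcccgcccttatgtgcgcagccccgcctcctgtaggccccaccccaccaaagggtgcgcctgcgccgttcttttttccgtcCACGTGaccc
UTP4, chr16:69132549-69132648, plus strand: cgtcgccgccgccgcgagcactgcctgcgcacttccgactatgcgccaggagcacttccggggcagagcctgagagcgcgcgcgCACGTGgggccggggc
NOP10, chr15:34343137-34343236, minus strand: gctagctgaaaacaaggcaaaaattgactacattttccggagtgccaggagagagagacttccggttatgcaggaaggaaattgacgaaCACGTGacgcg
POLR1B, chr2:112542365-112542464, plus strand: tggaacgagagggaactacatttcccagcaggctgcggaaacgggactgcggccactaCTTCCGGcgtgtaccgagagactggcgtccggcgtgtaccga

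Counted from the start, the first base of the E-box lay at -31 in DDX21, -10 in UTP20, -16 in UTP4 and -11 in NOP10, which held another at -170. The ETS core of POLR1B lay at -42, and the window of another annotated start of this gene held one at -126. UTP4 and NOP10 also held an ETS core, which is not capitalized, in the printed sequence. Windows of 300 bases, 250 before and 50 after a start, were given for 32 of the 40 listed genes, and 4 motifs were searched in them on both strands. The E-box was found in 13 of these 32 genes (40.6%), compared with 8.77% of the 27305 genes that had a window and 10.9% of the measured genes that had one. The ETS core was found in 12 of 32 (37.5% compared with 12.2% of all genes and 16.8% of measured genes), and the GC box GGGCGG in 25 of 32 (78.1% compared with 48.3% and 65.9%). The TATA box TATAAA was found in UTP20 only (3.13% compared with 13.99% and 11.9%). These matches are letters in a window and not measured binding sites.

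In Ishikawa cells most of the nucleolar genes were lower with siEfp than with siControl, and in HEC-1A cells most were not. In Ishikawa 32 of the 37 genes were lower at any size (28 with quantile normalization again) and 5 higher, whereas 47.6% of all genes were lower. The median difference was -0.20 compared with 0.01 over all genes. Most of these differences were small, since 2 genes, POLR1B and DDX21, passed 1.5-fold and both also passed 2-fold. Over all genes 3.72% passed 1.5-fold and 0.804% passed 2-fold in this direction. No nucleolar gene was 1.5-fold higher, compared with 1.49% of all genes. At 1.2-fold, a threshold added after the values had been seen, 16 of 37 were lower and 0 higher, whereas 15.2% of all genes were lower and 14.5% higher at this size. As a background of like brightness, the 6991 genes whose mean signal lay in the range of the nucleolar genes (7.12 to 11.3) were counted too. Of these, 3913 (56.0%) were lower, with a median of -0.04. At 1.5-fold 380 of them were lower and 98 higher, and at 2-fold 81 were lower. The share at 1.5-fold lower was thus near that of the nucleolar genes. At 1.2-fold 1437 of the 6991 were lower and 811 higher.

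In HEC-1A 10 of the 37 genes were lower and 27 higher (RRN3 and UTP20, both near 0, turned sign with quantile normalization again), with 47.7% of all genes lower. The median was 0.04 compared with 0.01 over all genes. The same POLR1B and DDX21 were the 2 genes at least 1.5-fold lower (2.04% of all genes), and DDX21 alone passed 2-fold (0.271% of all genes). None was 1.5-fold higher, compared with 1.34% of all genes. Of the 6991 genes of like signal, 3197 (45.7%) were lower, with a median of 0.02. Among these, 195 were 1.5-fold lower and 82 higher, 35 were 2-fold lower, and at 1.2-fold 881 were lower and 895 higher. At 1.2-fold, 4 of the 37 nucleolar genes were lower, with 12.5% of all genes lower at this size. In the other direction 3 were higher, with 12.7% of all genes higher. Each value is an average over all cells of a culture, so that fewer cells with a transcript and less of it per cell cannot be told apart.

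**Figure D1:**
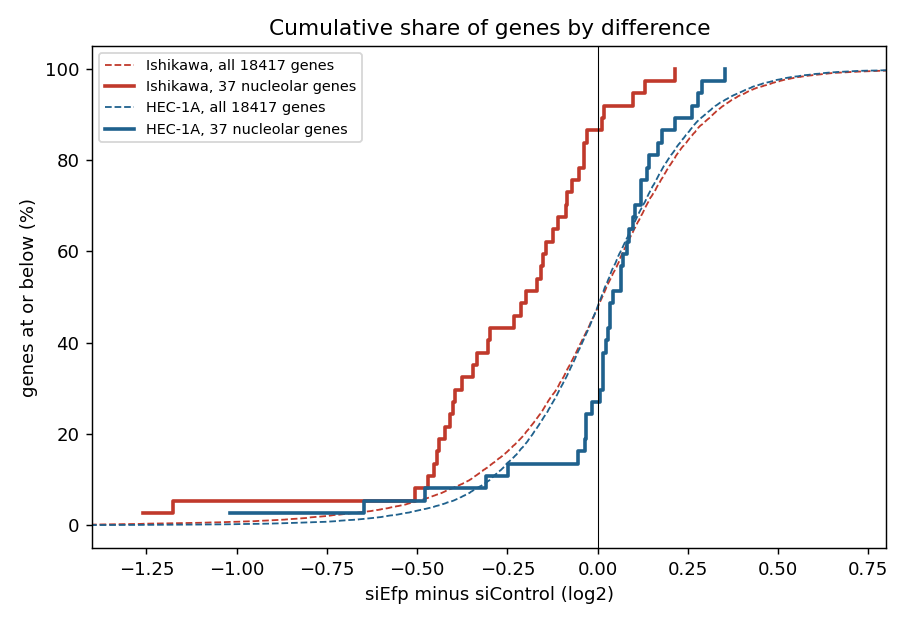
Cumulative share of genes (y axis, %) against the difference siEfp minus siControl on the log2 scale (x axis), with 1 array per condition and the extremes of all genes not drawn. Solid steps are the 37 nucleolar genes and dashed lines all 18417 genes, red for Ishikawa and blue for HEC-1A. The red steps lie to the left of all genes, with a median of -0.20, and the blue steps lie to the left of all genes at both ends and to the right of them in the middle, with a median of 0.04.

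DDX21 and POLR1B stood apart from the other genes in both lines. DDX21 is a helicase that binds ribosomal RNA and snoRNAs. Its signal was 9.38 with siControl and 8.20 with siEfp in Ishikawa, and 9.76 and 8.75 in HEC-1A. Its differences were -1.18 in Ishikawa (2.26-fold lower) and -1.02 in HEC-1A (2.03-fold lower). Of the 2113 genes within 0.5 of its mean signal in Ishikawa, 18 had a difference as low or lower, DDX21 included, and the SD of their differences was 0.323. In HEC-1A this held for 8 of 1798 genes, with an SD of 0.253.

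POLR1B encodes the second largest subunit of RNA polymerase I, which forms the catalytic centre together with POLR1A. Its signal was 8.58 with siControl and 7.32 with siEfp in Ishikawa, and 9.18 and 8.53 in HEC-1A. The siEfp value of HEC-1A lay just under the siControl value of Ishikawa, at 8.53 compared with 8.58. The differences were -1.26 (2.39-fold lower) and -0.65 (1.57-fold lower). In Ishikawa 13 of 2738 genes of like signal were as low (SD 0.340), and in HEC-1A 37 of 2156 (SD 0.262).

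The only replication is across the lines, so the effect shared by both was tested with limma over all 18417 genes with the line as a block, which leaves 1 residual degree of freedom and assumes that both lines replicate 1 effect. DDX21 fell by 1.10 on the log2 scale (SE 0.12, Benjamini-Hochberg adjusted p = 0.0436) and was lower in 2 of 2 lines. It was the only nucleolar gene among the 29 genes that fell (0.157% of all genes). POLR1B did not pass, with an estimate of -0.95 (SE 0.17, limma adjusted p = 0.112), although it was also lower in 2 of 2 lines. The next lowest adjusted p among the 37 was that of RRP9, at 0.520. Without the genes below the median signal of every array, or with an intensity trend, POLR1B passed as well (limma adjusted p = 0.0312 and 0.0456), and without the block neither gene passed.

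Without DDX21 and POLR1B, which were set aside after their values had been seen, the other 35 genes still had a median of -0.17 in Ishikawa, with a range of -0.50 to 0.22 and 30 genes lower. In HEC-1A their median was 0.07, with a range of -0.48 to 0.35 and 8 genes lower. Across the 37 genes the differences of the lines correlated at r = 0.55, and across these 35 at r = -0.15, as a description over genes that share the same 4 arrays. The value over all 18417 genes was 0.33.

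**Figure D2:**
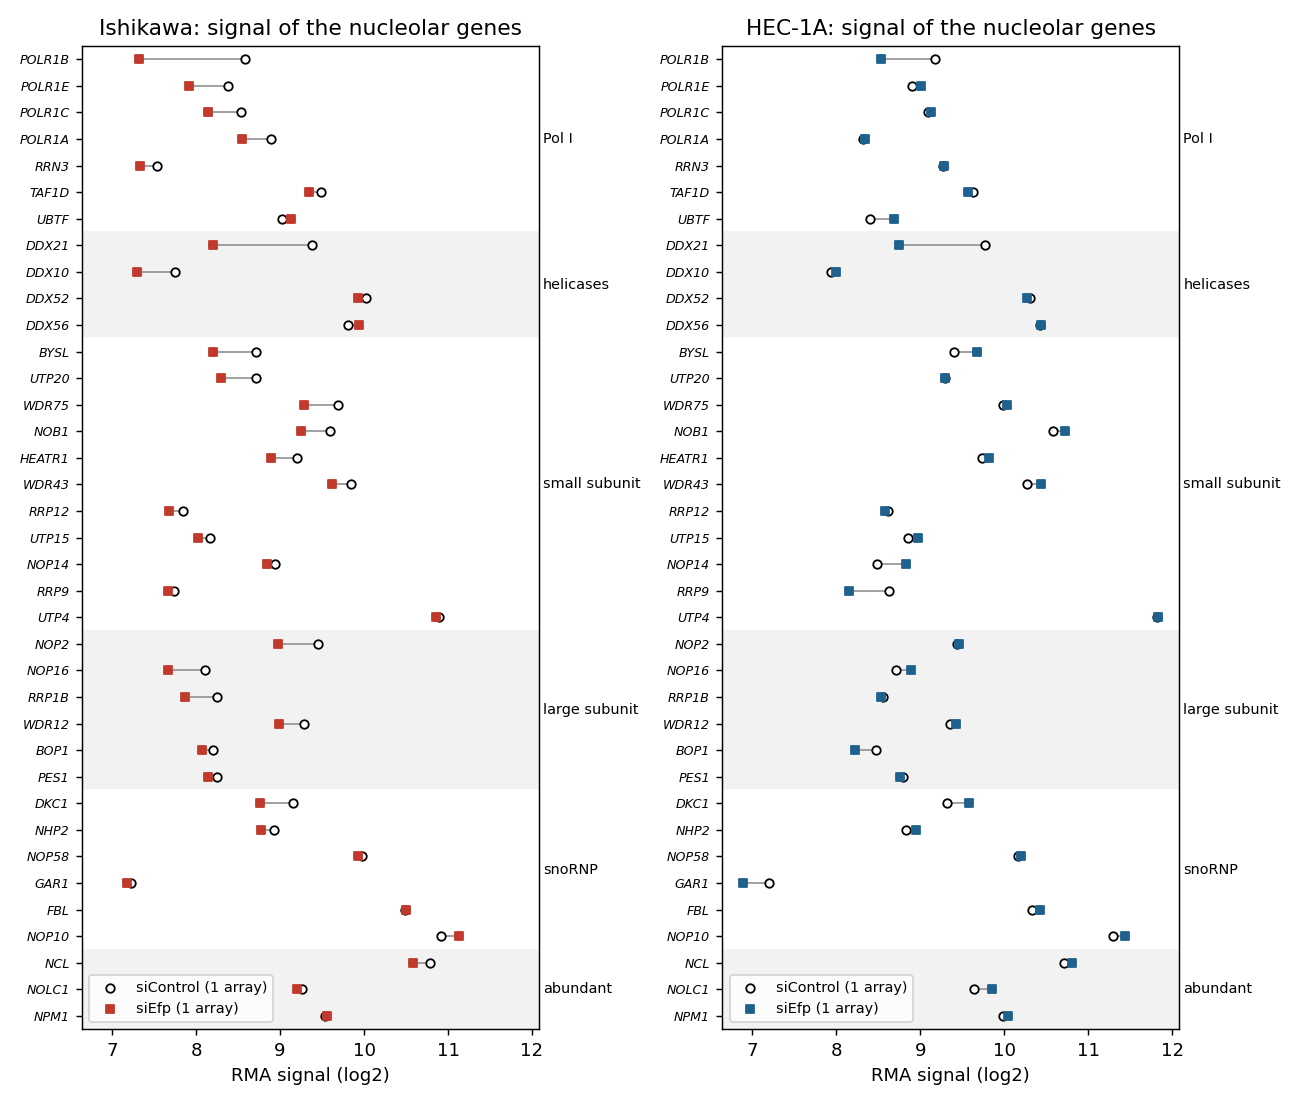
Log2 RMA signal (x axis) of each nucleolar gene (y axis, grouped by role) in Ishikawa on the left and HEC-1A on the right. Open circles are siControl and filled squares siEfp, 1 array each, joined by a line. In Ishikawa nearly all squares lie to the left of their circles, and in HEC-1A DDX21 and POLR1B have the longest lines.

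The 7 genes of the RNA polymerase I machinery had a median difference of -0.34 in Ishikawa and 0.02 in HEC-1A, with 6 of 7 and 2 of 7 lower. Besides POLR1B, the subunit POLR1E went from 8.37 to 7.92 in Ishikawa and from 8.90 to 9.00 in HEC-1A. POLR1C, a subunit shared with RNA polymerase III, went from 8.54 to 8.14 and from 9.10 to 9.13. POLR1A, the largest subunit, went from 8.89 to 8.55 and from 8.32 to 8.35. All 4 subunits were thus lower in Ishikawa, and POLR1B alone of the 4 was lower in HEC-1A. The initiation factors RRN3 and TAF1D differed less than the subunits in Ishikawa. RRN3 had differences of -0.21 and 0.02, TAF1D of -0.14 and -0.05, and UBTF was higher in both lines, at 0.10 and 0.29.

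The 11 small-subunit genes were all lower in Ishikawa, with a median of -0.23 (UTP4 and RRP9, both near 0, turned sign with quantile normalization again), and 2 of 11 were lower in HEC-1A, with a median of 0.08. BYSL, a factor of late small-subunit assembly, went from 8.71 to 8.21 in Ishikawa and from 9.40 to 9.68 in HEC-1A. UTP20, a scaffold of the small-subunit processome, had differences of -0.42 and 0.01. WDR75 (-0.41 and 0.04), HEATR1 (-0.30 and 0.08), WDR43 (-0.23 and 0.17), UTP15 (-0.15 and 0.12) and UTP4 (-0.03 and 0.02) belong to the subcomplex that binds the precursor first. The 5 therefore ranged from nearly level to 1.33-fold lower in Ishikawa. NOB1, the endonuclease of the last cut of small-subunit RNA, had differences of -0.33 and 0.14, and RRP12, an export factor, of -0.17 and -0.03. NOP14 had -0.09 and 0.35. RRP9, a protein of the box C/D particle that guides the early cuts, was nearly level in Ishikawa (7.73 and 7.66) and lower in HEC-1A (8.63 and 8.15, a difference of -0.48).

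The 6 large-subunit genes were likewise all lower in Ishikawa, with a median of -0.34, and 3 of 6 were lower in HEC-1A, with a median of 0.01. NOP2, an rRNA cytosine methyltransferase, went from 9.45 to 8.98 in Ishikawa and from 9.44 to 9.46 in HEC-1A. NOP16 had differences of -0.44 and 0.18 and RRP1B of -0.37 and -0.02. PES1, BOP1 and WDR12 form one complex needed for large-subunit processing, and their differences were -0.11, -0.12 and -0.30 in Ishikawa and -0.03, -0.25 and 0.07 in HEC-1A. The HEC-1A value of BOP1 is uncertain, since its 2 probe sets gave 0.02 and -0.51. Of the 4 helicases, DDX10 had differences of -0.44 and 0.07, DDX52 of -0.09 and -0.03, and DDX56 of 0.13 and 0.01, so that DDX21 stood alone.

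The modification particles and the abundant nucleolar proteins had the smallest median differences of the role groups in Ishikawa. The 6 genes of the small nucleolar ribonucleoproteins had a median of -0.04 in Ishikawa and 0.11 in HEC-1A, with 4 of 6 and 1 of 6 lower. DKC1, the pseudouridine synthase of the box H/ACA particle, went from 9.16 to 8.75 in Ishikawa and from 9.32 to 9.58 in HEC-1A. Of its partners NHP2 (-0.16 and 0.12), GAR1 (-0.04 and -0.31) and NOP10 (0.22 and 0.14), only NHP2 had the same signs, and NOP10 had the highest difference of the 37 genes in Ishikawa. FBL, the methyltransferase of the box C/D particle, had differences of 0.01 (below 0 after centring on all genes) and 0.10, and its partner NOP58 of -0.04 and 0.03. Among the abundant proteins, NCL had differences of -0.20 and 0.09, NOLC1, which accompanies small nucleolar ribonucleoproteins, of -0.05 and 0.22, and NPM1 of 0.02 and 0.07. NPM1 rests on 4 probe sets, of which 1 was dim (3.68 to 3.99) and 3 bright (11.4 to 12.2), and near-identical copies of this gene in the genome make its value uncertain. The brightest NPM1 probe set alone was level in Ishikawa (11.6 on both arrays).

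**Figure D3:**
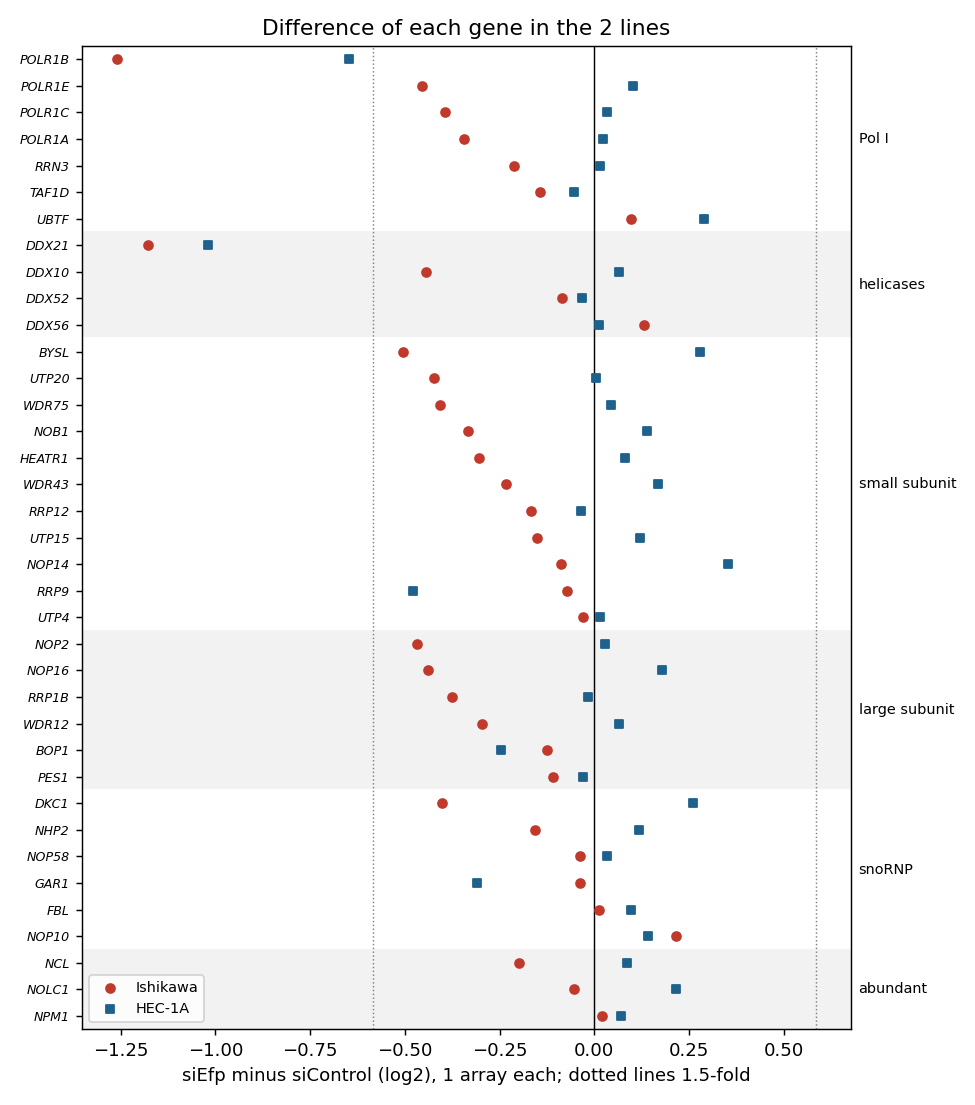
Difference siEfp minus siControl on the log2 scale (x axis) of the 37 nucleolar genes (y axis, grouped by role), red circles for Ishikawa and blue squares for HEC-1A, from 1 array per condition. Dotted lines mark 1.5-fold, which POLR1B and DDX21 passed in both lines, and all 11 small-subunit circles (UTP4 and RRP9 turned sign with quantile normalization again) and all 6 large-subunit circles lie left of 0.

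Set side by side, 32 of the 37 genes had a lower difference in Ishikawa than in HEC-1A, compared with 51.5% of all genes, and the median gap was -0.28 compared with -0.01. Of the 37 genes, 10 were lower in both lines, 22 in Ishikawa only, 0 in HEC-1A only, and 5 were higher in both. Over all 18417 genes these counts were 4917, 3842, 3863 and 5735, so the share lower in both was near the background. Among the 6991 genes of like signal 4230 had a lower difference in Ishikawa, and 2349 were lower in both, 1563 in Ishikawa only, 848 in HEC-1A only and 2226 higher in both. With 1 array per condition the difference between the lines has no residual degree of freedom and was not tested, and the duplex and time of the HEC-1A arrays may differ. BYSL had the widest gap (-0.78). RRP9 had the widest gap in the other direction, with a difference 0.41 higher in Ishikawa.

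**Figure D4:**
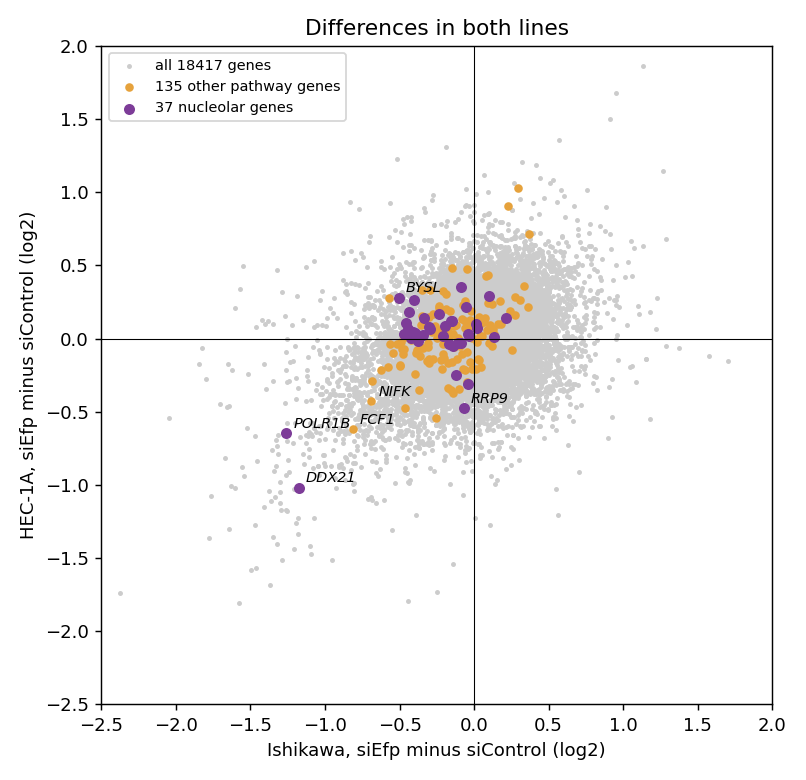
Difference siEfp minus siControl in HEC-1A (y axis, log2) against that in Ishikawa (x axis, log2), with 1 point per gene. Purple points are the 37 nucleolar genes, orange points 135 other genes of the pathway and grey points all 18417 genes. DDX21 (-1.18 and -1.02) and POLR1B (-1.26 and -0.65) lie apart at the lower left, and most other purple points lie left of 0 near the horizontal line.

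Of a wider list of 143 other genes of rRNA synthesis and ribosome assembly, 135 were measured. In Ishikawa 99 of these were lower (73.3%, compared with 47.6% of all genes), with a median of -0.16. In this line 4 were at least 1.5-fold lower and 0 higher, compared with 3.72% and 1.49% of all genes. In HEC-1A 65 were lower (48.1%, compared with 47.7% of all genes), with a median near 0. There 1 was 1.5-fold lower and 3 higher, compared with 2.04% and 1.34% of all genes. None passed limma over both lines (0 genes). In this fit 15 of the 135 had an unadjusted p under 0.05, compared with 2205 of all 18417 genes. The share was thus near that of all genes. FCF1, a small-subunit processome nuclease-fold protein, was the lowest of the 135 genes in both lines. Its signals were 9.18 and 8.37 in Ishikawa and 8.98 and 8.36 in HEC-1A. NIFK, a partner of the proliferation antigen in the nucleolus, had differences of -0.69 and -0.43, NAT10, an RNA acetyltransferase, of -0.69 and -0.29, LYAR of -0.62 and -0.22, and PNO1 of -0.58 and -0.20. In HEC-1A the list of the 5 lowest also held WDR74 (-0.54), EIF6, an anti-association factor of the large subunit (-0.47), and DIMT1, an rRNA methyltransferase (-0.37). The highest in Ishikawa were ZNF622 (0.37), RRP7A (0.36) and IMP3 (0.33), and in HEC-1A EXOSC4, an exosome subunit (1.03), TSR3 (0.90) and ZNF622 (0.71).

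Subunits and factors of the other polymerases gave a further comparison. Of 19 genes of RNA polymerase III, 13 were lower in Ishikawa, with a median of -0.17, and 8 in HEC-1A. Of 7 genes of RNA polymerase II, 3 were lower in Ishikawa, with a median of 0.03, and 2 in HEC-1A, with a median of 0.10. MYC had signals of 9.67 and 8.67 in Ishikawa and of 10.7 and 10.5 in HEC-1A, a level 2.01-fold lower in Ishikawa and a difference of -0.19 in HEC-1A (limma adjusted p = 0.322 over both lines). Its partner MAX had differences of 0.20 and 0.21. The 12 measured nucleolar genes with an E-box in the window had a median of -0.10 in Ishikawa, and the 18 with a window without it one of -0.30. In HEC-1A these medians were 0.02 and 0.07. Of these genes 10 of 12 with an E-box and 15 of 18 without it were lower in Ishikawa. Those with an E-box included DDX21, BYSL and NOP2, whereas POLR1B had none in its windows. Whether MYC has a part in these differences was not tested. The corresponding Ishikawa medians for the ETS core were -0.11 and -0.30.

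The nucleolar genes also differed in level between the lines, and by more with siEfp than with siControl. The sum of their log2 signals with siControl was 334.5 in Ishikawa and 347.6 in HEC-1A. With siEfp it was 325.0 and 347.8. The estimates below average over both siRNAs, so they include the lower siEfp values of Ishikawa. In the same limma fit 22 of the 37 passed, of which 21 were higher in HEC-1A and 1 lower, compared with 18.3% of all genes higher and 17.0% lower. Among the 6991 genes of like signal 2010 were higher and 1440 lower. The median of HEC-1A minus Ishikawa was 0.50, compared with 0.01 over all genes and 0.09 over those of like signal. RRN3 had signals of 7.54 and 7.33 in Ishikawa and of 9.27 and 9.28 in HEC-1A, a line difference of 1.84 (SE 0.13, limma adjusted p = 0.000102). All 4 values separated by line with a gap far wider than the difference within a line. NOB1 was higher by 1.23 (SE 0.15, limma adjusted p = 0.00119) and BYSL by 1.08 (SE 0.19, limma adjusted p = 0.00580). By role, 10 of the 11 small-subunit genes were higher in HEC-1A, all but NOP14, whereas none of the 6 genes of the small nucleolar ribonucleoproteins passed in limma (2 had an unadjusted p under 0.05). UBTF was the 1 gene lower in HEC-1A, with signals of 8.40 and 8.69 compared with 9.03 and 9.13 (-0.54, SE 0.13, limma adjusted p = 0.0169). Each line is represented by 2 arrays of different siRNAs, so the error holds what is left after a shared effect of siEfp.

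**Figure D5:**
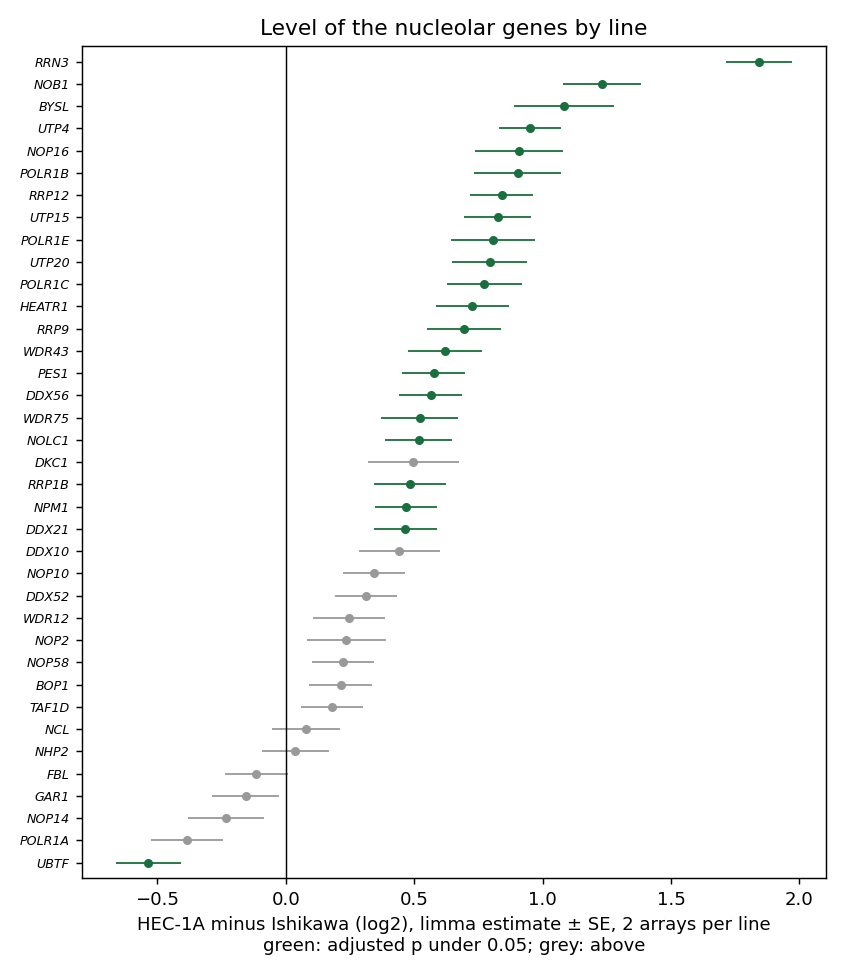
Difference in level between the lines, HEC-1A minus Ishikawa on the log2 scale (x axis), for the 37 nucleolar genes (y axis, sorted). Points are limma estimates and bars their SE, from 2 arrays per line, green where the adjusted p was under 0.05 and grey elsewhere. RRN3 stands at 1.84 and UBTF at -0.54, and 21 of the 22 green points lie right of 0.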

How the data were processed

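Signals of 4 arrays (1 per condition) were taken from the table the authors deposited, which holds 1 log2 value per probe set. The submitters' processing notes name RMA in Affymetrix Expression Console, and no source used here gives a version or a genome build. RMA would hide a shift common to all genes and shrinks the differences of dim probe sets. The number of arrays limits the precision. Of 33297 probe sets, 19460 had 1 gene symbol, 1754 several and 12083 none, and 1-symbol probe sets were averaged per gene. Of the 19460, 19429 matched a RefSeq gene ID. Groups came from the sample titles.

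Differences within a line are values without a test. The effect shared by both lines and the difference in level between lines were fitted with limma 3.58.1 in R 4.3.3 over all genes (both terms, eBayes, adjusted p under 0.05, Benjamini-Hochberg). Nothing states that the arrays are more than single cultures. With 1 residual degree of freedom, the error of a gene rests largely on a spread shared over all genes (prior degrees of freedom 5.54). The gene itself adds only how far its siEfp difference departs between the lines. The p-values therefore do not measure the spread between cultures. Other steps used Python 3.11.15, numpy 2.4.6, pandas 2.3.3 and matplotlib 3.10.9. The fit was run on simulated data with the same siEfp change added in both lines. This checks that such a change is recovered. It cannot check the assumption that both lines replicate 1 effect. The alternatives were centring, quantile normalization again, a filter on dim genes, the brightest probe set per gene, other thresholds, no block and an intensity trend.

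The nucleolar genes and all gene lists (other pathway genes, polymerases II and III, MYC network, nucleolar stress, proliferation and cell type markers) were chosen from general knowledge with earlier results of these data known. All nucleolar genes are given, with the 5 lowest and 3 highest other pathway genes per line, MYC, MAX and TRIM25, and up to 3 genes at each end of the remaining lists. Promoter windows were matched by symbol, 32 of 40.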

Additional observations from a re-analysis of the deposited data

Results flagged for a closer look

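BYSL, a factor of late small-subunit assembly, was lower with siEfp in Ishikawa (8.71 to 8.21) and higher in HEC-1A (9.40 to 9.68). The gap between the differences of the lines was -0.78, and it was singled out because each difference passed 1.2-fold in opposite directions. The difference between the lines was not tested, since each rests on 1 array per condition.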

How the results depend on the processing

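With quantile normalization again the Ishikawa median was -0.14, and 4 genes with small differences (GAR1, NOLC1, UTP4 and RRP9, none beyond 0.07) changed sign. At thresholds other than 1.5-fold, 16 nucleolar genes were lower in Ishikawa at 1.2-fold, and in HEC-1A 4 were lower and 3 higher at 1.2-fold and 1 lower at 2-fold. The 1.2-fold threshold was chosen after seeing the data. For the effect shared by both lines, limma called 30 genes, and 85 at an adjusted p under 0.1, 182 with an intensity trend and 251 without dim genes, where 2 nucleolar genes were called in each of the last settings. Without the block limma called 0 genes and 0 nucleolar genes, with 252 and 1 at an unadjusted p under 0.05. The adjusted p of DDX21 was then 1. That fit has no term for the line, so differences in level between the lines stay in its error. The count of 32 genes lower in Ishikawa was 28 with quantile normalization and 33 with centring. For the difference between the lines, the counts of calls stayed within 1.5 times under every alternative run, with 18 to 27 nucleolar genes. Of the values of single nucleolar genes under the normalization, filter and probe set alternatives, 267 moved by no more than 0.05. The other 29 moved further. Most of the 267 could hardly move, since the filter leaves values unchanged and centring shifts all genes alike by little. Only 3 genes had several probe sets. Nearly all of the 29 were Ishikawa values with quantile normalization again, which moved upward. The rest were UTP4 in HEC-1A with that normalization and BOP1 in HEC-1A (-0.51 with its brighter probe set). With 1 array per condition no array could be left out within a line. None of these genes, averaged over its probe sets, lay below the median gene signal of any array. NPM1 includes a dim probe set (3.68 to 3.99), whose Ishikawa difference of 0.12 alone makes its average positive. The bright probe sets of NPM1 were slightly below 0 there.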

Other observations

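Of 12 proliferation genes, 11 were higher with siEfp in each line, compared with 9616 (Ishikawa) and 9594 (HEC-1A) of all 18417 genes. This direction was opposite to that of most nucleolar genes in Ishikawa. The medians were 0.13 in Ishikawa and 0.21 in HEC-1A. At 1.2-fold, 3 were higher and 1 lower in Ishikawa, and 1 was higher and 0 lower in HEC-1A. The paper reports fewer cells in S phase and less proliferation with siEfp in both lines. RRM2, a subunit of ribonucleotide reductase, had differences of 0.41 and 0.23, and TOP2A, a topoisomerase of dividing cells, of -0.27 and -0.02. Among 8 measured genes of the nucleolar stress list, 4 were lower in Ishikawa and 3 in HEC-1A, with medians of 0.03 in both. GDF15, a stress-induced cytokine, had signals of 7.48 and 8.18 in Ishikawa and of 9.82 and 10.5 in HEC-1A, differences of 0.70 and 0.71 (limma adjusted p = 0.110 over both lines). The ribosomal proteins RPL5 and RPL11 had differences between -0.10 and 0.10 in both lines. Of 6 stromal markers, 2 were lower in each line, with medians of 0.04 and 0.03.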
